A study of Mus musculus with 6 samples.

Results

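A set of 34 genes of DNA replication and S phase was followed in B16F10, a pigmented mouse melanoma cell line, in 3 wild-type libraries (WT, replicates 1, 2 and 3) and 3 libraries whose genotype is given as ANXA10-/- (A10KO, replicates 1, 13 and 14). The members were taken by symbol from a fixed list of 34, and all 34 were found among the 51912 genes of the table. RNA was measured by sequencing, and the deposited values are TPM, a relative transcript abundance that corrects for gene length and for library total. The series concerns annexin A10, one of the annexins, which bind membranes when calcium is present, and the spread of melanoma. It describes a wild-type and a knockout line of these cells, gives no treatment, and does not say how the gene was disrupted or whether the replicate numbers stand for clones, cultures or repeated preparations. All p-values therefore speak of library-to-library spread alone, and that spread may be technical. Annexin A10 itself gave no check of the labels, since Anxa10 was listed at 0 TPM in all 6 libraries.

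DNA is copied once per cell cycle from origins that are prepared in G1. CDC6 and CDT1 load the ring-shaped MCM2-7 helicase onto DNA, and CDC45, the GINS complex and MCM10 turn it into an active helicase at the start of S phase. Polymerases, the sliding clamp PCNA and its loader follow the fork, ribonucleotide reductase and thymidylate synthase supply deoxynucleotides, and chromatin assembly factors repackage the new DNA. Transcription factors of the E2F family, released from RB-type pocket proteins when cyclin E and its partner kinase become active, switch on many of these genes late in G1.

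The cells' identity was checked on marker lists. All 10 melanocyte markers reached 1 TPM in at least 1 library, with a summed level of 11600 to 12600 TPM in WT and 12300 to 13300 TPM in A10KO. Oca2 was the only marker of this list under 1 TPM in any library. It was at 8.41, 11.39 and 8.05 TPM in WT and 0.40, 4.85 and 11.33 TPM in A10KO replicates 1, 13 and 14. Tyr was at 13.38, 25.02 and 43.80 TPM in these A10KO libraries, beside 22.15, 24.18 and 23.26 TPM in WT. Of markers of other cell types, 8 of 10 leukocyte, 5 of 9 fibroblast, 5 of 7 endothelial and 8 of 8 epithelial and keratinocyte genes stayed under 1 TPM in every library. Their summed levels were 3.36 to 6.44 TPM in WT and 1.21 to 2.82 TPM in A10KO for leukocyte markers, 7.98 to 10 and 4.58 to 7.70 TPM for fibroblast markers, 14.2 to 23.6 and 21.6 to 38.2 TPM for endothelial markers, and 0.49 to 0.81 and 0.19 to 0.57 TPM for epithelial and keratinocyte markers. Of these markers, Cd3e, Adgre1, Tyrobp, Lum, Emcn, Epcam and Krt10 were listed at 0 in all 6 libraries. Those that reached 1 TPM in a library were Cd68, Lyz2, Col1a1, Col1a2, Pdgfrb, Postn, Tek and Vwf. The endothelial markers Tek and Vwf stood at 10.4 ± 4.65 and 7.22 ± 1.34 TPM in WT (SD, n = 3). In A10KO they stood at 28.5 ± 9.08 and 2.92 ± 2.92 TPM (SD, n = 3). Mitochondrially encoded transcripts took 6.32% to 6.56% of TPM in WT, and 7.93%, 14.7% and 7.37% in A10KO replicates 1, 13 and 14. The part of this shift in the values below was not tested, but the changes were also computed with these transcripts removed.

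A DNA sequence feature that the choice of genes did not use was looked for first, because E2F factors are known to bind TTTGGCGC, TTTCCCGC, TTTCGCGC and TTTGCCGC and close variants. These 4 words were searched on both strands in RefSeq promoter windows (GRCm38.p6, 300 bases from 250 before to 50 after a start), which were matched by symbol for 27 of the 34 genes. A window held at least 1 of the words for 10 of the 27, or 37.0%, against 4.97% of 8936 tested genes and 2.60% of all 27025 genes with a window. The share was not particular to the set. A list of other replication genes, read further below, had 14 of 38, or 36.8%, and a mitosis list 1 of 26, or 3.85%. The 10 members with a match were unevenly spread over roles, with 6 of 7 helicase-loading genes and 0 of 2 helicase-activation, 0 of 3 nucleotide-supply and 0 of 2 repair genes. The 4 polymerase and fork genes had 1, the 5 regulators of the G1/S step 2, and the 4 chromatin genes 1. A match is a run of letters, not a measured binding site, and its absence says only that these letters are not in this window.

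The matches are shown because they let the helicase-loading genes be compared base by base. Each line gives 30 bases, 5′ to 3′ along the strand of the gene, with the matched letters in capitals, and 12 capitals in a row are a pair of overlapping matches on opposite strands.
Mcm3, chr1:20820275-20820304, minus strand: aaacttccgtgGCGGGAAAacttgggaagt
Mcm3, chr1:20820263-20820292, minus strand: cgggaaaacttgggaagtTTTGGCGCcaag
Mcm5, chr8:75109347-75109376, plus strand: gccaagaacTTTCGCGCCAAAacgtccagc
Mcm6, chr1:128359795-128359824, minus strand: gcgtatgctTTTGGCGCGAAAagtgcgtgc
Mcm6, chr1:128359734-128359763, minus strand: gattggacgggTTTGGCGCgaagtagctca
Mcm7, chr5:138172030-138172059, minus strand: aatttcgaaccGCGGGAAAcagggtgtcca
Mcm7, chr5:138171849-138171878, minus strand: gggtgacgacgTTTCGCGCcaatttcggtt
Cdc6, chr11:98908002-98908031, plus strand: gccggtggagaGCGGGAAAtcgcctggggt
Cdt1, chr8:122568035-122568064, plus strand: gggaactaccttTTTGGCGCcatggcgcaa
Uhrf1, chr17:56304117-56304146, plus strand: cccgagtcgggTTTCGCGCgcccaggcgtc
E2f2, chr4:136172294-136172323, plus strand: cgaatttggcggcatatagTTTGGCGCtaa

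Mcm5 and Mcm6 each carried the paired form upstream of the start, at bases -153 to -142 and -110 to -99. By the GENCODE M21 annotation of GRCm38 the Mcm3 and Mcm7 stretches overlap untranslated exon sequence of their genes and the Cdt1 stretch runs over the untranslated leader into coding sequence, whereas the Cdc6 and Uhrf1 stretches lie within the gene but outside its exons and the Mcm5, Mcm6 and E2f2 stretches lie outside the annotated gene. The remaining 2 genes with a match were Dtl and Pola1. The CCAAT word, bound by NF-Y, was in 18 of the 27 windows, or 66.7%, against 43.8% of tested genes. It was found for 20 of 38 of the other replication genes, or 52.6%, and 20 of 26 of the mitosis list, or 76.9%. TTTGAA, the core of an element common in genes of mitosis, was in 5 of the 27, or 18.5%, against 14% of tested genes. That word was found for 5 of 38 of the other replication genes, or 13.2%, and 18 of 26 of the mitosis list, or 69.2%. The 10 genes with E2F-type letters had log2 changes from -0.07 to 0.51 (median 0.07) and the 17 without them from -0.31 to 0.41 (median -0.04).

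Between A10KO and WT, 0 of the 34 genes passed limma at an adjusted p of 0.05, where 0.0414% of the 12068 genes tested did, and 0 of 34 had an unadjusted p under 0.05, where 8.83% did. A gene was tested if it reached 1 TPM in at least 3 libraries, which all 34 members did. Log2 changes are A10KO minus WT on the log2(TPM + 1) scale, which understates changes of low genes, and p-values are adjusted over all genes tested by the Benjamini-Hochberg method. The 34 changes ran from -0.31 to 0.51 with a median of -0.005 (16 above 0 and 18 below), where the median over all genes tested was -0.04. The lowest adjusted p among members was 0.568. The groups did not overlap for 3 members that stood higher in A10KO, Cdc6, E2f8 and Uhrf1, and for 0 that stood lower, whereas 5.61% of tested genes were higher and 11.5% lower without overlap. In GRCm38 these 3 genes lie as Cdc6 (ENSMUSG00000017499) at chr11:98907801-98923940, E2f8 (ENSMUSG00000046179) at chr7:48866429-48881596 and Uhrf1 (ENSMUSG00000001228) at chr17:56303321-56323486.

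A change that missed the threshold is not a change shown to be absent, and the intervals give the sizes left possible. The 95% interval of the change lay within a 2-fold change in either direction for 33 of the 34 genes, where it did for 79.0% of genes tested. E2f2, whose interval ran from -0.02 to 1.04, was the exception. Within a 1.5-fold change lay the intervals of 22 genes, where 34.7% of tested genes did. Levels of these genes were mostly high in B16F10, at a median percentile of 77.9 among tested genes by mean TPM. Because bulk RNA was measured, a difference in the share of cells in S phase and a difference in these RNAs per cell could not be told apart.

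**Figure D1:**
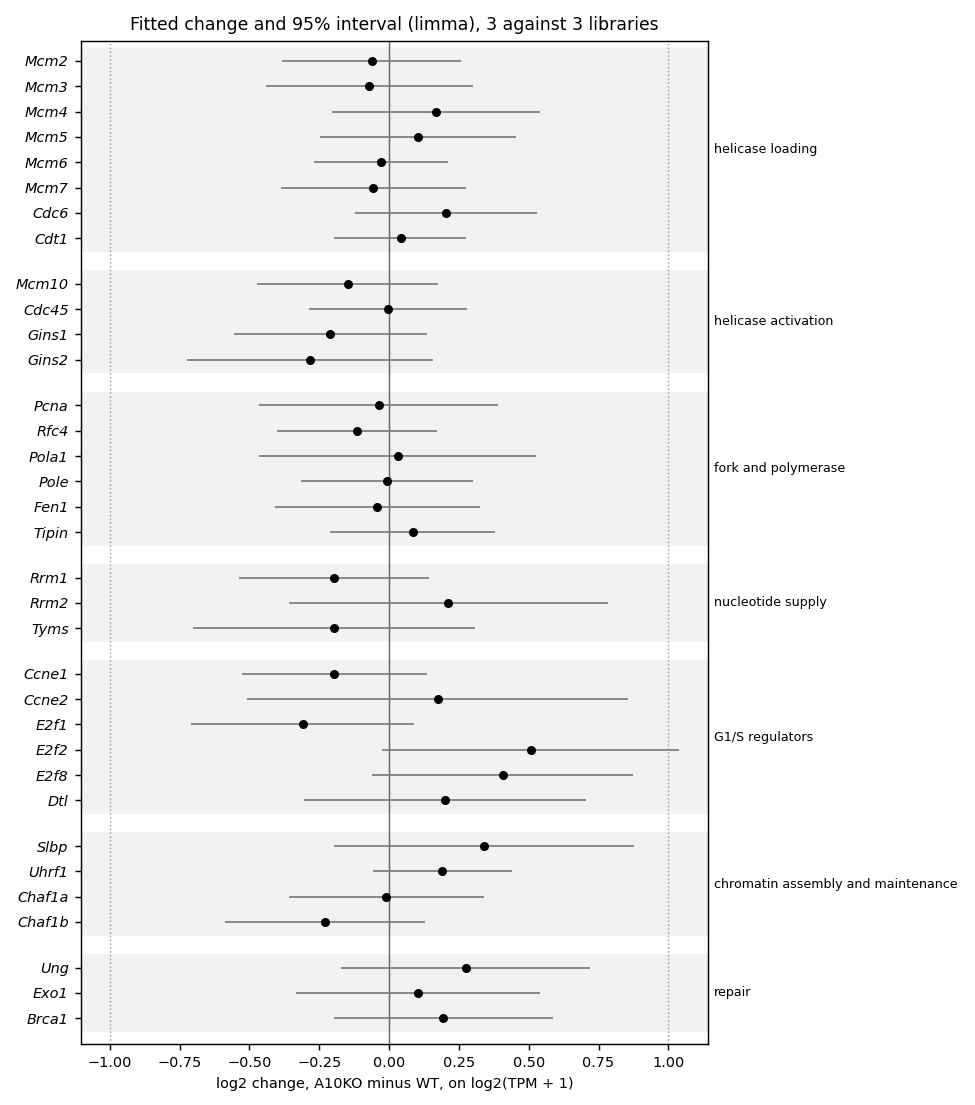
Fitted log2 change (A10KO minus WT, on log2(TPM + 1)) of the 34 genes, grouped by role, with points for the limma estimate and bars for its 95% interval from 3 against 3 libraries. The interval of each gene includes 0, and only that of E2f2 reaches past 1, the dotted line at a 2-fold change.

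The 6 subunits of the MCM2-7 helicase differed in level far more than they differed between groups. In the sentences that follow, values are in the order WT replicates 1, 2 and 3, then A10KO replicates 1, 13 and 14. Mcm2 was at 207, 199 and 206 TPM in WT and 211, 163 and 217 TPM in A10KO. Mcm3 was at 220, 191 and 213 TPM and at 159, 213 and 228 TPM. One of these 2 was the highest subunit in each library, and their groups overlapped, although Mcm2 was low only in A10KO replicate 13 and Mcm3 only in A10KO replicate 1.

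Mcm5, Mcm6 and Mcm7 stood at about the same level as each other. Mcm5 was at 107, 86.5 and 106 TPM in WT and 113, 91.3 and 119 TPM in A10KO. Mcm6 was at 121, 117 and 123 TPM and at 116, 115 and 122 TPM. Mcm7 was at 122, 118 and 117 TPM and at 116, 96.3 and 134 TPM. Mcm6 varied little in either group (SD of 3.25 and 3.99 TPM, n = 3 each), whereas Mcm7 spread over the range of 96.3 to 134 TPM within A10KO. Mcm4 was the lowest subunit in all 6 libraries, at 33.4, 34.5 and 34.5 TPM in WT and 31.2, 45.0 and 40.8 TPM in A10KO. The highest subunit stood 6.18 ± 0.403 times above Mcm4 in WT and 5.71 ± 1.02 times in A10KO (SD, n = 3 each), a gap between transcript levels of proteins that join the ring in equal number. Without Mcm4 the highest and lowest subunits differed 2.12 ± 0.163 times in WT and 2.04 ± 0.256 times in A10KO. The limma log2 changes of the 6 subunits ran from -0.07 for Mcm3 to 0.17 for Mcm4 (SE 0.16 for each of these 2, adjusted p from 0.784 to 0.952 over the 6).

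**Figure D2:**
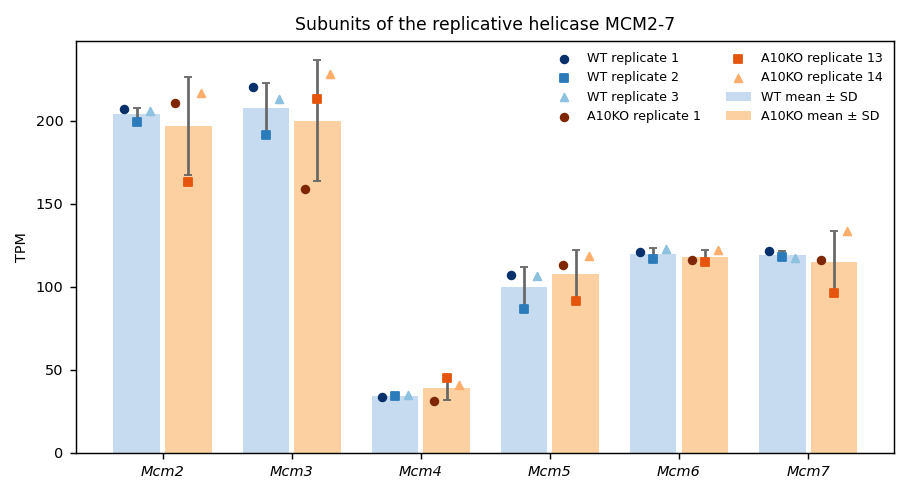
TPM of the 6 subunits of the MCM2-7 helicase, with bars for the group mean, whiskers for the SD (n = 3 libraries a group) and points for each library. Mcm4 lies between 31.2 and 45.0 TPM in all libraries, while Mcm2 and Mcm3 lie between 159 and 228 TPM.

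The helicase loaders differed from each other in level and hardly between groups. Cdc6, whose product recruits CDT1 and the helicase to the origin recognition complex, was at 17.96, 15.72 and 17.88 TPM in WT and 18.78, 21.01 and 20.04 TPM in A10KO. All 3 A10KO libraries were above all 3 WT libraries, and the log2 change of 0.20 (SE 0.14, interval -0.12 to 0.53) had a limma adjusted p of 0.726. Cdt1 was at 118, 117 and 114 TPM and at 117, 123 and 118 TPM, and only Cdc45 varied less within A10KO (SD of 0.04 for Cdt1 and 0.02 for Cdc45 on the log2 scale). The Cdt1 transcript was 6.79 ± 0.567 times as abundant as that of Cdc6 in WT and 6.0 ± 0.211 times in A10KO.

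Genes of helicase activation had log2 changes below 0 in all 4 cases, where 6805 of the 12068 tested genes did, and limma called 0 of the 4. For Cdc45 the sign turned in 7 of 14 alternatives. Its change was above 0 with median-of-ratios scaling (0.039), mitochondrial transcripts removed (0.061), quantile normalization (0.046) and GC and length trends removed (0.079). It was also above 0 without WT replicate 1 (0.021), WT replicate 3 (0.022) or A10KO replicate 13 (0.008). Cdc45, a part of the active helicase, was at 33.3, 29.8 and 33.4 TPM in WT and 32.2, 31.5 and 32.5 TPM in A10KO, with a log2 change of -0.004. Mcm10 was at 54.3, 49.4 and 54.4 TPM and at 40.5, 50.4 and 52.1 TPM. Only replicate 1 of the A10KO libraries was below the WT range of Mcm10.

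Gins1 and Gins2, subunits of GINS, were below the WT range in A10KO replicates 1 and 13 and within it in replicate 14. Gins1 was at 30.5, 33.0 and 33.0 TPM in WT and 26.5, 24.4 and 32.6 TPM in A10KO. Gins2 was at 41.5, 45.6 and 37.8 TPM and at 27.6, 32.1 and 44.0 TPM. The groups overlapped for both through A10KO replicate 14, and the log2 changes were -0.21 (SE 0.15, adjusted p 0.734) and -0.28 (SE 0.19, adjusted p 0.717). The other GINS genes, no members of the set and chosen after their values were seen, differed from this. Gins3 was at 9.19, 7.21 and 8.51 TPM in WT and 7.47, 8.51 and 9.15 TPM in A10KO, within the WT range. Gins4 was at 58.6, 64.2 and 61.1 TPM and at 53.1, 48.6 and 55.2 TPM, lower in all A10KO libraries without overlap (log2 change -0.23, SE 0.12, limma adjusted p 0.63).

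At the fork, the sliding clamp gene Pcna had the highest level of the whole set. It was at 393, 335 and 386 TPM in WT and 278, 383 and 441 TPM in A10KO, so that replicate 1 lay below and replicate 14 above the WT range. The group means were 371 ± 31.8 and 367 ± 82.8 TPM (SD, n = 3 each). Fen1, the flap nuclease that trims Okazaki fragments, was at 64.2, 53.6 and 65.7 TPM in WT and 49.5, 61.9 and 67.6 TPM in A10KO. It showed the same order of the A10KO libraries as Pcna.

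The remaining fork genes had log2 changes from -0.12 to 0.08, each with an adjusted p of 0.807 or more. Rfc4, a subunit of the clamp loader, stood at 41.9 ± 2.16 TPM in WT and 38.7 ± 2.86 TPM in A10KO. The catalytic subunits of the polymerases alpha and epsilon, Pola1 and Pole, stood at 14.1 ± 2.0 and 29.8 ± 0.95 TPM in WT and at 14.7 ± 3.71 and 29.8 ± 2.90 TPM in A10KO. Tipin, a fork-protection gene, was at 122, 124 and 127 TPM in WT and 122, 152 and 123 TPM in A10KO. A10KO replicate 13 alone was above the others for Tipin.

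Among the nucleotide supply genes the A10KO libraries lay far apart for Rrm2 and Tyms, with SDs of 0.529 and 0.412 on the log2 scale. For Rrm1 that SD was 0.224, near the median of 0.225 over the 34 genes. Rrm2, the small subunit of ribonucleotide reductase, was at 195, 190 and 201 TPM in WT and 166, 340 and 206 TPM in A10KO. Rrm1, the large subunit, was at 179, 160 and 190 TPM and at 160, 129 and 174 TPM. In A10KO replicate 13 the first was the highest of all 6 libraries and the second the lowest, and the ratio of Rrm2 to Rrm1 was 2.64 there against 1.03 to 1.19 in the other 5 libraries. Tyms, thymidylate synthase, was at 253, 198 and 250 TPM in WT and 184, 161 and 279 TPM in A10KO. Its A10KO values lay on both sides of the WT range. The log2 changes were 0.21 for Rrm2 (SE 0.245), -0.20 for Rrm1 (SE 0.15) and -0.20 for Tyms (SE 0.22), and the lowest adjusted p of the 3 was 0.745. Without A10KO replicate 13 the change of Rrm2 turned to -0.08.

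**Figure D3:**
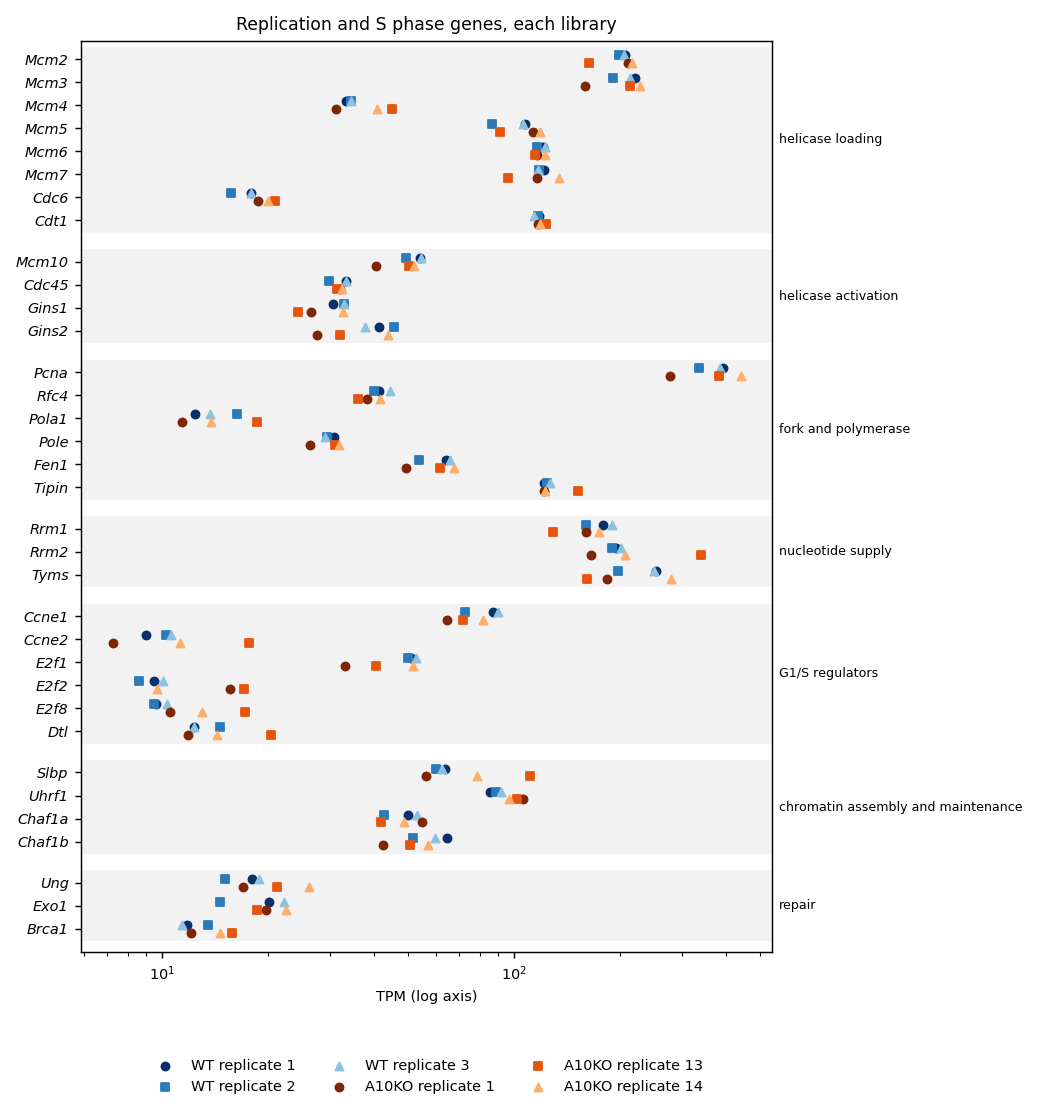
TPM (log axis) of the 34 genes in each of the 6 libraries, grouped by role, with WT libraries in blue in the upper row and A10KO libraries in brown to orange in the lower row of each gene. The points of Rrm2, Slbp, Ccne2 and Dtl for A10KO replicate 13 stand to the right of the other 5, and those of Pcna and E2f1 for A10KO replicate 1 to the left.

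Among regulators of the G1/S step, the members of the E2F family differed in the sign of their log2 changes, and limma called 0 of them. E2f1, an activator, was at 50.9, 49.9 and 52.8 TPM in WT and 33.1, 40.6 and 51.6 TPM in A10KO. Replicates 1 and 13 were below all WT libraries and replicate 14 within their range, for a log2 change of -0.31 (SE 0.17, interval -0.71 to 0.09, limma adjusted p 0.655). E2f2, another activator, was at 9.51, 8.62 and 10.1 TPM in WT and 15.6, 17.1 and 9.71 TPM in A10KO. The same 2 libraries were above the WT range and replicate 14 within it, and the log2 change of 0.51 (SE 0.23, adjusted p 0.568) was the highest of the 34.

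E2f8, a repressor, was at 9.65, 9.49 and 10.3 TPM in WT and 10.58, 17.18 and 12.99 TPM in A10KO. All A10KO libraries were above all WT libraries, with replicate 1 nearest to them, and the log2 change was 0.41 (SE 0.20, interval -0.06 to 0.87, adjusted p 0.608). The ratio of E2f1 to E2f8 TPM, chosen after the values were seen, was 5.28, 5.26 and 5.11 in WT and 3.13, 2.37 and 3.97 in A10KO. These groups did not overlap, and an exact two-sided permutation test gave p = 0.1, the smallest that 3 against 3 libraries allow. As the ratio was picked for its pattern, and groups without overlap can give no other p here, that p is no support. The ratio of Cdt1 to Cdc6 TPM did not overlap either, at 6.57, 7.43 and 6.36 in WT and 6.24, 5.85 and 5.91 in A10KO. For the other ratios between members that were computed, the groups overlapped.

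The E-type cyclins, which activate CDK2 at the G1/S step, were expressed at unequal levels. Ccne1 was at 87.4, 72.5 and 89.9 TPM in WT and 64.6, 71.6 and 81.5 TPM in A10KO. Ccne2 was at 9.05, 10.3 and 10.6 TPM and at 7.26, 17.7 and 11.2 TPM. Ccne1 exceeded Ccne2 in every library, 8.39 ± 1.30 times in WT and 6.73 ± 2.47 times in A10KO, with the lowest ratio, 4.04, in A10KO replicate 13. Dtl, the substrate receptor of the ligase that degrades CDT1 on chromatin-bound PCNA, was at 12.4, 14.6 and 12.4 TPM in WT and 11.8, 20.4 and 14.3 TPM in A10KO. For Ccne2 and Dtl replicate 13 stood highest and replicate 1 lowest of the 6 libraries.

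Genes of chromatin assembly and maintenance held the remaining member without overlap. Uhrf1, which brings the maintenance methyltransferase to newly copied DNA, was at 85.7, 88.8 and 92.2 TPM in WT and 106, 102 and 96.7 TPM in A10KO. Each A10KO library was above each WT library, and the log2 change of 0.19 (SE 0.11, interval -0.06 to 0.44) had a limma adjusted p of 0.657. Slbp, whose product binds the end of histone mRNAs, was at 63.9, 60.1 and 62.6 TPM in WT and 56.2, 111 and 78.3 TPM in A10KO. It was below the WT range in replicate 1 and above it in replicates 13 and 14.

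Chaf1a and Chaf1b encode the large and middle subunits of chromatin assembly factor 1. Chaf1a was at 50.2, 42.8 and 53.1 TPM in WT and 54.7, 41.8 and 48.8 TPM in A10KO. Chaf1b was at 64.8, 51.6 and 59.7 TPM and at 42.6, 50.6 and 57.0 TPM. The ratio of Chaf1b to Chaf1a was 0.779 in A10KO replicate 1 and 1.12 to 1.29 in the other 5 libraries.

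The 3 repair genes of the set had log2 changes above 0, where 5248 of the 12068 tested genes did, and limma called none of them. Ung, which removes uracil from DNA, was at 18.1, 15.2 and 18.9 TPM in WT and 16.99, 21.23 and 26.16 TPM in A10KO, with a change of 0.27 (SE 0.19, adjusted p 0.733). Exo1, an exonuclease of mismatch repair, was at 20.2, 14.7 and 22.2 TPM and at 19.7, 18.7 and 22.5 TPM. Brca1, which acts in repair by homologous recombination, was at 11.8, 13.5 and 11.4 TPM in WT and 12.1, 15.9 and 14.7 TPM in A10KO. The groups overlapped for all 3, and for Exo1 the change of 0.10 turned to -0.06 without WT replicate 2, which had its lowest value.

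The A10KO libraries differed from each other more than the WT libraries did. On the log2(TPM + 1) scale the SD within A10KO exceeded that within WT for 30 of the 34 genes, or 88.2%, as it did for 78.1% of genes tested. The median SD was 0.103 in WT and 0.225 in A10KO for these genes, beside 0.144 and 0.291 for all genes tested. With 3 libraries a group this is a description without a test.

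Each A10KO library had its own position relative to the WT libraries. Replicate 1 lay below the range of the 3 WT libraries for 20 of 34 genes and above it for 7, where 47.4% and 23.4% of tested genes did. Replicate 14 lay below it for 0 and above it for 19, or 55.9%, where 34.5% and 27.3% of tested genes did. Replicate 13 lay below it for 12 and above it for 15, with 36.7% and 38.3% of tested genes. The members' median deviation from the WT mean was -0.13, 0.03 and 0.09 on the log2 scale in replicates 1, 13 and 14, beside -0.12, 0.02 and -0.03 for all tested genes.

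Replicates 1 and 14 differed in a shared direction across the set. Replicate 1 was the lower of the pair for 31 of the 34 genes, or 91.2%, where it was for 59.5% of tested genes. For 10 members (Mcm3, Mcm4, Mcm7, Pcna, Pole, Fen1, Rrm2, Tyms, Ccne2 and Slbp) replicate 1 was below and replicate 14 above every WT library, which was so for 10.4% of tested genes, and for 0 members was it the reverse. The summed TPM of the 34 genes was 2890, 2640 and 2900 in WT and 2500, 2870 and 3060 in A10KO. Without A10KO replicate 1, 11 members stood higher without overlap and 0 lower, beside 13.4% and 17.4% of tested genes. Without A10KO replicate 14, 4 stood higher and 9 lower, beside 11.2% and 21.0%.

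WT replicate 2 stood apart among the wild-type libraries. It was the lowest of the 3 for 22 of the 34 genes, or 64.7%, where it was for 29.9% of tested genes, and it was the highest for 5. Its median deviation from the other WT libraries was -0.07 over the members and 0.08 over all tested genes. Without it, limma still called 0 members, and 4 stood higher and 5 lower without overlap (Ccne1, Cdc45, Chaf1b, Mcm10 and Rrm1), beside 10.6% and 14.7% of tested genes.

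**Figure D4:**
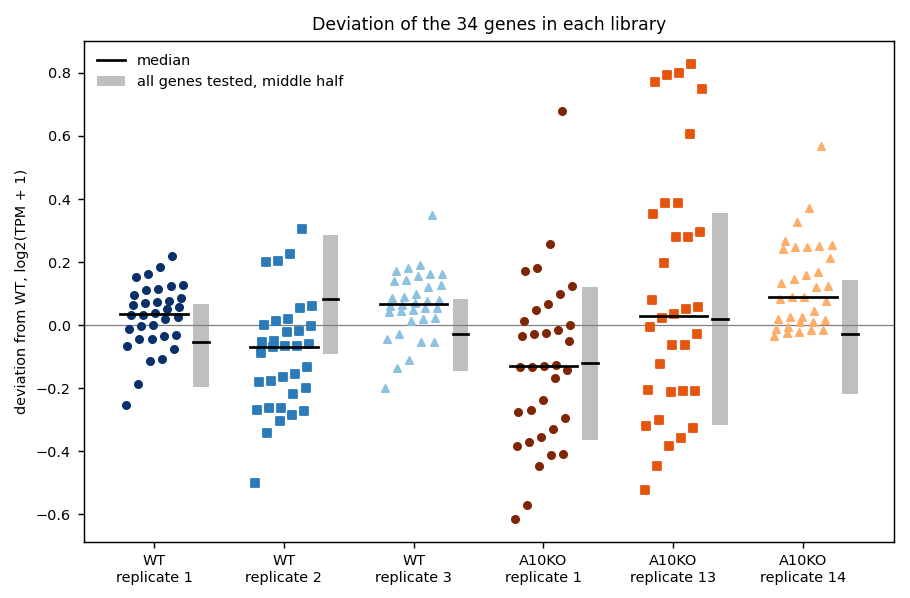
Deviation of each of the 34 genes (points) on the log2(TPM + 1) scale, from the mean of the WT libraries for A10KO and from the mean of the other WT libraries for each WT library; black lines are medians and grey bars span the middle 50% of all genes tested. The points of A10KO replicate 14 lie mostly above 0, those of A10KO replicate 1 mostly below, and those of A10KO replicate 13 spread widest.

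Transcript GC content and length went with some of these library differences, and their part in the results was not tested beyond the alternative given here. Over all tested genes the deviation of A10KO replicate 13 had a Spearman correlation of -0.34 with the GC content of the longest transcript and 0.34 with its length. Over the 34 members these correlations were -0.26 and 0.12. For WT replicate 2 the correlation with GC content was -0.17 over all tested genes and -0.29 over the members. For WT replicate 1 it was 0.16 over all tested genes and 0.37 over the members. A10KO replicate 1 had a correlation with length of -0.06 over all tested genes and 0.32 over the members. Genes share the library in these correlations and are not independent replicates. With the trends on GC content and length removed from every library, an alternative added after the data were seen, limma called 0 members, and Cdc6, Cdt1, E2f8 and Uhrf1 stood higher without overlap, beside 9.87% of tested genes.

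Other genes of replication were read from lists that did not hold the members. In the list of further origin, polymerase and fork genes, 45 of 45 were tested and limma called 0, with 1 higher and 4 lower at an unadjusted p under 0.05 and a median log2 change of -0.04. Over all genes tested 2.56% were higher and 6.27% lower at that p, so lower calls were the more frequent in the whole table. The lowest p belonged to Rnaseh2a, the catalytic subunit of the enzyme that removes ribonucleotides from DNA, at 85.9 ± 6.0 TPM in WT and 48.6 ± 12.9 TPM in A10KO (log2 change -0.84, SE 0.21, adjusted p 0.322). Rpa1, the large subunit of the single-strand binding complex, stood at 192 ± 12.9 and 148 ± 15.2 TPM (adjusted p 0.463), without overlap. Pold2, a subunit of polymerase delta, stood at 181 ± 10 and 116 ± 52.8 TPM (adjusted p 0.551), with the groups overlapping. Without overlap, 4 genes of this list stood higher and 6 lower, beside 5.61% and 11.5% of tested genes. Dna2, named after the values were seen, was the 1 higher gene at an unadjusted limma p under 0.05. It stood at 12.2 ± 1.73 and 16.2 ± 1.08 TPM (limma adjusted p 0.564), without overlap.

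Lists of nucleotide supply, E2F and pocket proteins, and chromatin and repair likewise had 0 called genes, of 12, 14 and 20 tested. Their counts at an unadjusted p under 0.05 were 0, 1 (higher) and 3 (lower), to be read beside the same 2.56% higher and 6.27% lower over all genes, and their median log2 changes -0.08, 0.04 and -0.05. E2f6, a repressor, stood at 21.5 ± 1.04 TPM in WT and 29.7 ± 5.04 TPM in A10KO (log2 change 0.44, SE 0.16, limma adjusted p 0.505), and Cdc25a, a phosphatase that activates CDK2, at 21.9 ± 3.42 and 26.8 ± 0.763 TPM (adjusted p 0.643), both higher without overlap. E2f5, a repressor, stood at 11.7 ± 0.206 and 9.12 ± 1.81 TPM (adjusted p 0.647), lower without overlap. Fanca, of the Fanconi anaemia core complex, stood at 95.4 ± 2.43 and 69.4 ± 12.2 TPM (log2 change -0.47, SE 0.15, adjusted p 0.443), and Brca2, a tumour suppressor gene, at 28.8 ± 2.78 and 22.2 ± 1.48 TPM (log2 change -0.36, SE 0.14, adjusted p 0.522). Rbbp4, a histone chaperone of several chromatin complexes, stood at 115 ± 3.56 and 90.1 ± 14.4 TPM (adjusted p 0.529). Fanca, Brca2 and Rbbp4 were each lower without overlap. Groups overlapped for the most abundant genes of these lists, among them the histone chaperone gene Nasp (137 ± 12.6 and 133 ± 20.5 TPM), the histone methyltransferase gene Ezh2 (114 ± 3.96 and 133 ± 40.2 TPM), the E2F partner gene Tfdp1 (86.9 ± 4.34 and 95.1 ± 15.6 TPM) and Nme1, a nucleoside diphosphate kinase (316 ± 48.0 and 330 ± 58.9 TPM). Dctpp1, a dCTP pyrophosphatase, stood at 167 ± 19.3 and 132 ± 28.1 TPM and Shmt1, of one-carbon metabolism, at 32.9 ± 4.96 and 27.5 ± 5.19 TPM, with adjusted p of 0.625 and 0.739. Tk1, thymidine kinase, stood at 183 ± 8.79 and 163 ± 18.4 TPM, and Cdk2, the kinase partner of cyclin E, at 210 ± 26.9 and 184 ± 40.4 TPM, with overlap.

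Genes of mitosis, which follow S phase, had 0 of 30 called, a median log2 change of -0.10 and 23 changes below 0, where 6805 of all 12068 tested genes were below 0. Aurkb, a kinase of chromosome segregation, stood at 124 ± 5.56 TPM in WT and 97.3 ± 8.89 TPM in A10KO (log2 change -0.35, SE 0.12, adjusted p 0.471). It was the only gene of that list with an unadjusted limma p under 0.05, where 8.83% of tested genes had such a p. Without overlap, 2 genes of the mitosis list stood higher and 3 lower, beside 5.61% and 11.5% of tested genes. Nusap1 and Prc1, of the spindle, stood at 28.1 ± 5.93 and 104 ± 4.87 TPM in WT and 21.4 ± 3.22 and 86.1 ± 17.3 TPM in A10KO, and the abundant Cdk1 and Ube2c at 330 ± 24.7 and 308 ± 23.9 TPM in WT and 301 ± 58.0 and 268 ± 35.4 TPM in A10KO. The difference between the replication set and the mitosis list was not tested.

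Exons of 7 members overlap exons of protein-coding genes on the opposite strand that reached 1 TPM. These are Mcm7 (Cops6 and Ap4m1), Cdc45 (Ufd1), Gins2 (Gse1), Rfc4 (Eif4a2), Fen1 (Tmem258), Ccne2 (Ints8) and Chaf1a (Ubxn6). The strand setting of the counting is not given in the sources used here, so reads of these pairs may not have been separable. The named pseudogenes of Pcna, Pcna-ps1 and Pcna-ps2, were at 0 to 0.05 TPM.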

How the data were processed

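RNA of 6 B16F10 libraries was measured by sequencing. Per the labels' protocols, total RNA came from a Trizol extraction with a DNase I step. The submitters' processing notes name fastp, HISAT, RSEM and the build GRCm38.p5, without versions, settings or strandedness. The deposited values are TPM by the authors, although the table is named as raw counts: columns carry decimals and sum to between 969834 and 985045. TPM keeps no depth, so depth is unknown and no counting interval is given. Each library's own table equalled the series table in 6 of 6 cases. No column came from samples outside the series.

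Log2(TPM + 1) was fitted with limma 3.58.1 (mean-variance trend, R 4.3.3) for A10KO against WT, with genes of at least 1 TPM in at least 3 libraries (12068) and Benjamini-Hochberg adjustment at 0.05. The fit was run on simulated libraries with known changes. These had the same spread in both groups and no shifts shared between genes, unlike the libraries here. The run therefore cannot show how the fit behaves under the unequal spread of these data. Alternatives were a pseudocount of 0.1, no filter, a filter of 5 TPM, median-of-ratios scaling, removal of mitochondrial transcripts, quantile normalization, array weights, leaving out each library and, added later, removal of GC and length trends. Members and lists were chosen with earlier results of these data known. All members are named. Full values were fixed for Mcm2 to Mcm7, members without overlap and the highest of each role, and from other lists up to 3 genes with the lowest p and up to 2 with the highest mean. The values given for each library of the remaining members were chosen after they were seen. Coordinates are from GENCODE M21, and promoters from RefSeq (GRCm38.p6).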

Additional observations from a re-analysis of the deposited data

How the results depend on the processing

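Limma called 0 of the 34 genes under every alternative run, and the lowest adjusted p of any member under any of them was 0.193. Of 476 member changes recomputed, 55 changed sign, however near to 0, in 15 genes, and 19 genes kept their sign throughout. Members at an unadjusted p under 0.05 numbered 1 with no filter, where 6.66% of all genes tested had such a p, 2 with median-of-ratios scaling (8.66%), 2 with quantile normalization (9.41%) and 3 with GC and length trends removed (9.62%). Leaving out a library they numbered 0 to 4, with 4 of 34 both without A10KO replicate 1 (10.7% of all genes) and without A10KO replicate 14 (13.3%). Genes called in the whole table numbered 5 in the reported fit, 3 with quantile normalization, 25 with array weights and 2 to 8 when leaving out a library, and those at an unadjusted p under 0.05 then ran from 573 without WT replicate 2 to 1607 without A10KO replicate 14, against 1066. Leaving out a library, 4 to 11 members stood higher and 0 to 9 lower without overlap. The shares of tested genes were then 7.42% to 13.4% higher and 14.2% to 21.0% lower. Cdc6, E2f8 and Uhrf1 were necessarily higher each time, since groups without overlap in all 6 libraries cannot overlap with a library left out. The members' median change ran from -0.053 to 0.079 when leaving out a library.

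Changes of the other sign were, with median-of-ratios scaling, Mcm6 0.015, Cdc45 0.039, Pcna 0.008, Pole 0.037, Fen1 0.001 and Chaf1a 0.034. With mitochondrial transcripts removed they were Mcm2 0.004, Mcm6 0.037, Mcm7 0.01, Cdc45 0.061, Pcna 0.03, Pole 0.058, Fen1 0.023 and Chaf1a 0.055. With quantile normalization they were Mcm2 0.006, Mcm6 0.03, Cdc45 0.046, Pcna 0.004, Pole 0.045, Fen1 0.009 and Chaf1a 0.046, and with array weights Mcm2 0.01, Mcm7 0.059, Pcna 0.005 and Pole 0.034. With GC and length trends removed they were Mcm2 0.033, Mcm3 0.019, Mcm7 0.042, Cdc45 0.079, Pcna 0.021, Pola1 -0.032, Fen1 0.079 and Chaf1a 0.033. Leaving out a library, changes ran from -0.136 to 0.068 for Mcm2, -0.174 to 0.086 for Mcm3, -0.168 to 0.067 for Mcm7, -0.056 to 0.022 for Cdc45, -0.181 to 0.151 for Pcna, -0.149 to 0.183 for Pola1, -0.055 to 0.074 for Pole, -0.137 to 0.084 for Fen1, -0.021 to 0.14 for Tipin, -0.08 to 0.436 for Rrm2, -0.125 to 0.466 for Ccne2, -0.004 to 0.366 for Dtl, -0.1 to 0.09 for Chaf1a and -0.063 to 0.22 for Exo1. The cause was not tested. The median change of all genes was -0.042 as reported and 0.019 with mitochondrial transcripts removed. No paired analysis was possible because the groups share only the replicate number 1. Depth is unknown, so its limits could not be set.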
